A study of Homo sapiens with 12 samples.

Results

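Expression of 4 genes for secreted proteins, NTS, KISS1, TTR and REG4, was followed in BON-1 cells, a long-used line from a human pancreatic neuroendocrine tumour. They were taken by symbol from a table of 54261 genes and chosen by their levels and their differences from BON-1 alone in these same libraries. All 4 were among the 13312 genes that reached an FPKM, a level per gene length and per sequencing depth, of 1 in at least 3 libraries. Their levels and differences are therefore given as a description. Counts of those past the threshold used for all genes are given beside the share of all genes, and support nothing. Calls of the 4 in other fits are listed too and support nothing either.

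Polyadenylated RNA was sequenced from BON-1 cells alone and from BON-1 cells isolated by flow cytometry after co-culture with CAFs, the usual abbreviation for cancer-associated fibroblasts, with 10 parts of BON-1 to 2, 4 or 6 parts of CAFs (10:2, 10:4 and 10:6). There were 3 libraries in each of the 4 groups, with 11703624 to 21882537 reads assigned to genes. It is not given whether BON-1 cells alone were also sorted, how pure the sort was, or whether replicates were separate cultures, so the p-values below measure only the spread between these libraries. All cells come from 1 line, and fewer cells with a transcript cannot be told apart from less transcript per cell in bulk RNA.

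NTS encodes the precursor of neurotensin, a gut and brain peptide cut from its precursor by proprotein convertases and released from secretory granules. Neurotensin acts on the receptor NTSR1 and is also bound by sortilin, the product of SORT1. KISS1 encodes the precursor of the kisspeptins, ligands of KISS1R that drive gonadotropin-releasing hormone neurons and were first described as products of a metastasis suppressor gene. TTR encodes transthyretin, a carrier of thyroxine that also holds retinol-binding protein in plasma, made mainly by liver and choroid plexus and also by islet cells. REG4 encodes a secreted C-type lectin of gut enteroendocrine and goblet cells.

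None of the genes neighbour one another in the genome (GRCh38.p14). NTS (Entrez gene 4922) spans chromosome 12 from 85874295 to 85882992 on the plus strand. KISS1 (3814) and REG4 (83998) are both on the minus strand of chromosome 1, from 204190341 to 204196491 and from 119794017 to 119811460. TTR (7276) spans chromosome 18 from 31591877 to 31598821 on the plus strand. Levels were summed over each gene, and single exons were not resolved.

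The 250 bases before the start of 3 of the genes, from RefSeq promoters of GRCh38.p14, show what precedes genes of different GC content and level. They are written 5′ to 3′ on the strand of the gene. Capitals mark matches, on either strand, to 4 short motifs: the TATA box TATAAA, the cyclic AMP response element core CGTCA, the forkhead core TGTTTNC and the GC box GGGCGG. Overlapping matches run together in KISS1.
NTS: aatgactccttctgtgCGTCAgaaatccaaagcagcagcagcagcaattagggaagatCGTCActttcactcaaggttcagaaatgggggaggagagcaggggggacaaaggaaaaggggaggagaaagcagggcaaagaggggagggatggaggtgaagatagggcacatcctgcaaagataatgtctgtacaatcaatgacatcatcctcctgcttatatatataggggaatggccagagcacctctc
KISS1: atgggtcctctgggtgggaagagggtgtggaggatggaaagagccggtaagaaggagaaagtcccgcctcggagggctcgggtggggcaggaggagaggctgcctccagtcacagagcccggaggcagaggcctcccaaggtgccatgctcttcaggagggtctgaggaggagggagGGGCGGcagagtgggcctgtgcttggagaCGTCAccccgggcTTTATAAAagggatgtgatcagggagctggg
REG4: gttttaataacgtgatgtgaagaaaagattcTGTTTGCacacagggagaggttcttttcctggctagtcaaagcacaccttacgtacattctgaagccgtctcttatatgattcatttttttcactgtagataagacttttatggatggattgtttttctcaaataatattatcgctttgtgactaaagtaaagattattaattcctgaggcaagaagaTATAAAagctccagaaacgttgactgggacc
The REG4 stretch, chr1:119811461-119811710, has a GC content of 35.6% and holds TATAAA from base −31 and a forkhead core from base −219. The KISS1 stretch, chr1:204196492-204196741, has a GC content of 63.6%. It holds TATAAA from base −29, the same letters on the other strand from base −31, CGTCA from base −44 and a GC box from base −73. The NTS stretch, chr12:85874045-85874294, has a GC content of 49.2% and holds CGTCA from bases −234 and −192, with no TATAAA in this window. Over 35116 promoters of this length TATAAA was found in 10.7%, CGTCA in 21.2%, the forkhead core in 15.5% and the GC box in 42.6%, and the median GC content was 58%. A match is a run of letters and not evidence of binding.

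NTS had by far the most transcript of the 4. Its FPKM was 116.6, 112.3 and 111.3 in BON-1 alone, 112.1, 103.8 and 121.0 at 10:2, 126.4, 126.3 and 116.7 at 10:4, and 115.1, 119.1 and 118.8 at 10:6. The groups overlapped except that all 3 libraries at 10:4 lay above BON-1 alone, narrowly at the nearest pair (116.7 and 116.6). At 10:4 this held for 30.8% of tested genes. Group means ± SD (n = 3) were 113.4 ± 2.80, 112.3 ± 8.60, 123.1 ± 5.57 and 117.7 ± 2.21, which placed NTS above 95.1% to 95.6% of tested genes. The differences in log2(FPKM + 1) from BON-1 alone were −0.02, 0.12 and 0.05 at 10:2, 10:4 and 10:6, each with an SE of 0.0504. Leaving out 10:2 replicate 2 took the first to 0.04, and leaving out 10:4 replicate 3 took the second to 0.16.

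KISS1 was lower in co-culture in most libraries. Its FPKM was 9.946, 8.064 and 7.589 in BON-1 alone, 6.582, 6.112 and 7.098 at 10:2, 7.783, 7.001 and 6.598 at 10:4, and 7.253, 6.214 and 5.863 at 10:6. Every library at 10:2 and 10:6 lay below every library of BON-1 alone, as for 18.3% and 24.5% of tested genes. At 10:4, 1 library lay within the range of BON-1 alone, whose replicate 1 was the highest of all. Means were 8.533 ± 1.25, 6.597 ± 0.493, 7.127 ± 0.603 and 6.443 ± 0.723. The log2 differences were −0.32, −0.22 and −0.35, with an SE of 0.0985. The first went to −0.22 without BON-1 alone replicate 1.

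TTR, the thyroxine carrier, had the lowest level and the largest difference. Its FPKM was 7.323, 6.395 and 5.416 in BON-1 alone, 5.151, 4.061 and 5.211 at 10:2, 4.164, 3.245 and 2.535 at 10:4, and 4.061, 4.846 and 3.895 at 10:6. At each ratio the 3 co-culture libraries lay below the 3 of BON-1 alone, and the 10:4 libraries reached lowest. The share of tested genes wholly below BON-1 alone was 18.3%, 24.3% and 24.5% at 10:2, 10:4 and 10:6, each taken singly. The share for all 9 libraries together was not taken. Means were 6.378 ± 0.953, 4.807 ± 0.648, 3.315 ± 0.817 and 4.267 ± 0.508. The log2 differences were −0.34, −0.78 and −0.48, with an SE of 0.141. The last went to −0.39 without BON-1 alone replicate 1 and to −0.43 without 10:6 replicate 3.

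REG4, the gut lectin, was lowest at the highest CAF share. Its FPKM was 10.15, 10.63 and 12.30 in BON-1 alone, 8.280, 9.654 and 9.125 at 10:2, 9.691, 10.09 and 8.415 at 10:4, and 8.778, 6.838 and 7.436 at 10:6. At each ratio its libraries lay below BON-1 alone, as those of 18.3%, 24.3% and 24.5% of tested genes did at 10:2, 10:4 and 10:6. The highest at 10:4 (10.09) came close to the lowest of BON-1 alone (10.15). Means were 11.03 ± 1.13, 9.020 ± 0.693, 9.400 ± 0.877 and 7.684 ± 0.994. The log2 differences were −0.26, −0.21 and −0.47, with an SE of 0.0957.

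**Figure D1:**
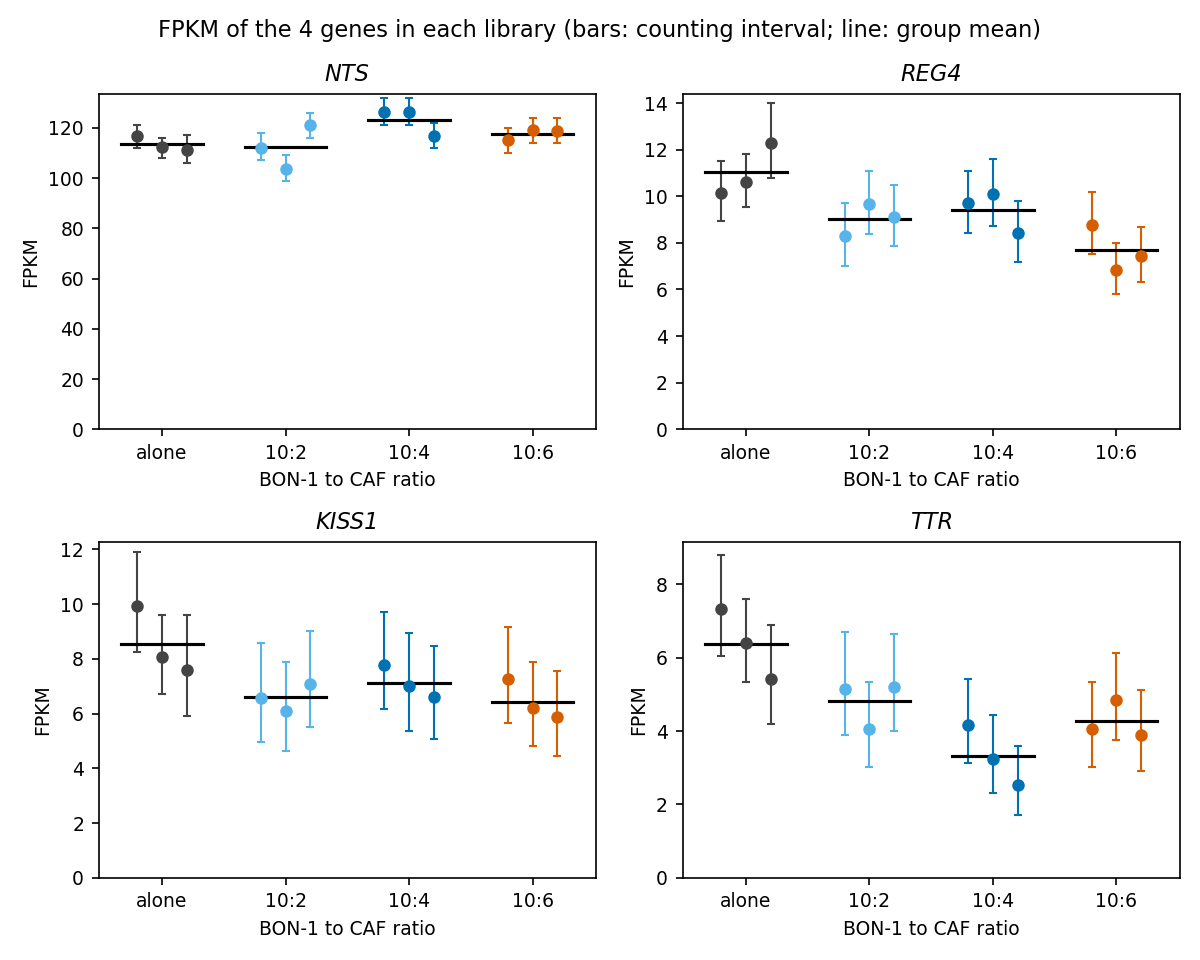
FPKM of NTS, REG4, KISS1 and TTR (y axis, from 0) in each of the 3 libraries of BON-1 alone and co-cultures at 10:2, 10:4 and 10:6 (x axis). Points are libraries, bars their 95% counting intervals and lines group means. REG4 and TTR were below BON-1 alone at each ratio, while NTS stayed between 103.8 and 126.4. Of tested genes 18.3%, 24.3% and 24.5% lay wholly below BON-1 alone at 10:2, 10:4 and 10:6, each ratio taken singly.

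At an adjusted p of 0.05 in limma, 1 of the 4 genes (KISS1) passed at 10:2, 1 (TTR) at 10:4 and 3 (TTR, REG4 and KISS1) at 10:6, each as lower. Of all tested genes 27.4%, 45.4% and 48% passed in either direction, 7.46%, 18.1% and 18.3% as lower and 19.9%, 27.3% and 29.7% as higher. Libraries without overlap and lower than BON-1 alone were found for 3, 2 and 3 of the 4 genes and for 18.3%, 24.3% and 24.5% of tested genes, and 30.8% were higher without overlap at 10:4, as NTS was. The share of tested genes below BON-1 alone in every co-culture library, as TTR and REG4 were, was not taken. Because these contrasts chose the genes, nothing is read from the counts. Single libraries decide some of them. KISS1 at 10:2 did not pass without BON-1 alone replicate 1 or 2 or 10:2 replicate 1 or 2, and TTR at 10:6 did not without BON-1 alone replicate 1 or 10:6 replicate 3. KISS1 at 10:4 passed without BON-1 alone replicate 3, REG4 at 10:2 without 10:6 replicate 1, and NTS at 10:4 as higher without 10:2 replicate 2 or 3 or 10:4 replicate 3.

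Between the co-culture ratios none of the 4 genes passed, and their libraries overlapped in every pair of ratios. Of tested genes 2.88% passed for 10:4 against 10:2, 0.331% for 10:6 against 10:4 and 6.97% for 10:6 against 10:2, and libraries did not overlap for 23.7%, 17.4% and 28.9%. The largest difference was that of TTR at 10:4 against 10:2, −0.44 ± 0.141 (SE), which passed without 10:4 replicate 1 (−0.58). The order of TTR means was BON-1 alone, 10:2, 10:6, 10:4, and that of REG4 and KISS1 was BON-1 alone, 10:4, 10:2, 10:6. For NTS it was 10:4, 10:6, BON-1 alone, 10:2. Neighbours in these orders overlapped, except BON-1 alone and the group next to it for TTR and REG4.

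Few reads stood behind 3 of the genes. TTR had 31 to 130 reads in a library, KISS1 55 to 126, REG4 147 to 353 and NTS 1626 to 3045. Counting alone gives an SD of 10.1% to 15.6% of the mean for TTR and 9.97% to 12.9% for KISS1, against 6.08% to 7.77% for REG4 and 2.08% to 2.37% for NTS. The SD between libraries was 0.897 to 1.58 times the counting SD for TTR, 0.58 to 1.47 for KISS1, 1.02 to 1.68 for REG4 and 0.857 to 3.23 for NTS. As ratios of summed reads per depth with exact 95% counting intervals, TTR at 10:4 was 0.517 (0.417 to 0.639) of BON-1 alone, REG4 at 10:6 was 0.702 (0.627 to 0.785) and KISS1 at 10:6 was 0.751 (0.625 to 0.9). KISS1 at 10:4 was 0.835 (0.697 to 0.999), and NTS at 10:4 was 1.09 (1.05 to 1.12). These intervals pool the reads of each group and cover counting error only. The SD between libraries was 2.04 times that of counting for NTS at 10:4 and 3.23 times at 10:2. It was 1.58 times for TTR at 10:4 and 1.66 times for REG4 at 10:6, but 0.696 and 0.908 times for KISS1 at 10:4 and 10:6. In the limma fit over libraries KISS1 and NTS did not pass at 10:4.

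Transcripts of different GC content went different ways in the co-culture libraries, and the 4 genes sit in different places on that scale. GC content is 34.6% for NTS, above 0.967% of genes with a value, 45% for REG4, 46.9% for TTR, and 65.9% for KISS1, above 96.5%. At 10:6 the median log2 difference from BON-1 alone was 0.396 over genes with a GC content of 25% to 41.6%, where NTS lies. It was 0.267 over genes from 41.6% to 46.8% (REG4 −0.47), −0.00657 from 46.8% to 52.7% (TTR −0.48) and −0.148 from 58.9% to 87.9% (KISS1 −0.35). NTS, at 0.05, was below the median of genes in its range although its libraries were near those of BON-1 alone.

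**Figure D2:**
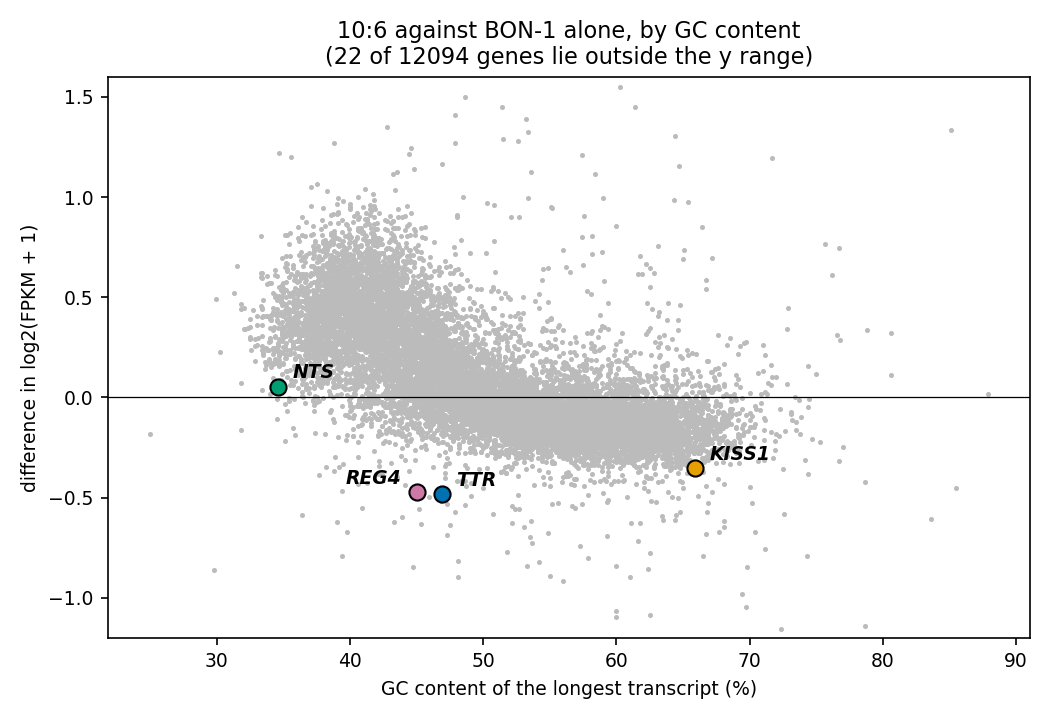
Difference in log2(FPKM + 1) at 10:6 against BON-1 alone (y axis) by the GC content of the longest transcript in percent (x axis) for 12094 tested genes, of which 22 lie outside the plotted range. Grey points are genes and coloured points the 4 named ones; REG4 (−0.47) and TTR (−0.48) lie under the bulk of genes of similar GC content, KISS1 (−0.35) at the lower edge, and NTS (0.05) under genes of similarly low GC content.

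Removing smooth trends on gene length and GC content from each library left TTR and REG4 lower and moved KISS1 and NTS. TTR became −0.32, −0.76 and −0.49 at 10:2, 10:4 and 10:6, and REG4 −0.30, −0.29 and −0.57. KISS1 became −0.14, −0.01 and −0.11. NTS became −0.18, −0.23 and −0.16, lower than BON-1 alone at all 3 ratios, so its sign turned at 10:4 and 10:6. With the trends removed 14.3%, 26.3% and 28.4% of 12094 genes passed in either direction, and 11%, 21.7% and 24.5% with each library's median kept in place of its mean. With medians kept the NTS values were −0.22, −0.29 and −0.21 and the KISS1 values −0.18, −0.07 and −0.16. Few genes have a GC content as low as that of NTS, so its trend rests on the end of the scale. The part of GC content in the differences was not tested beyond these refits.

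**Figure D3:**
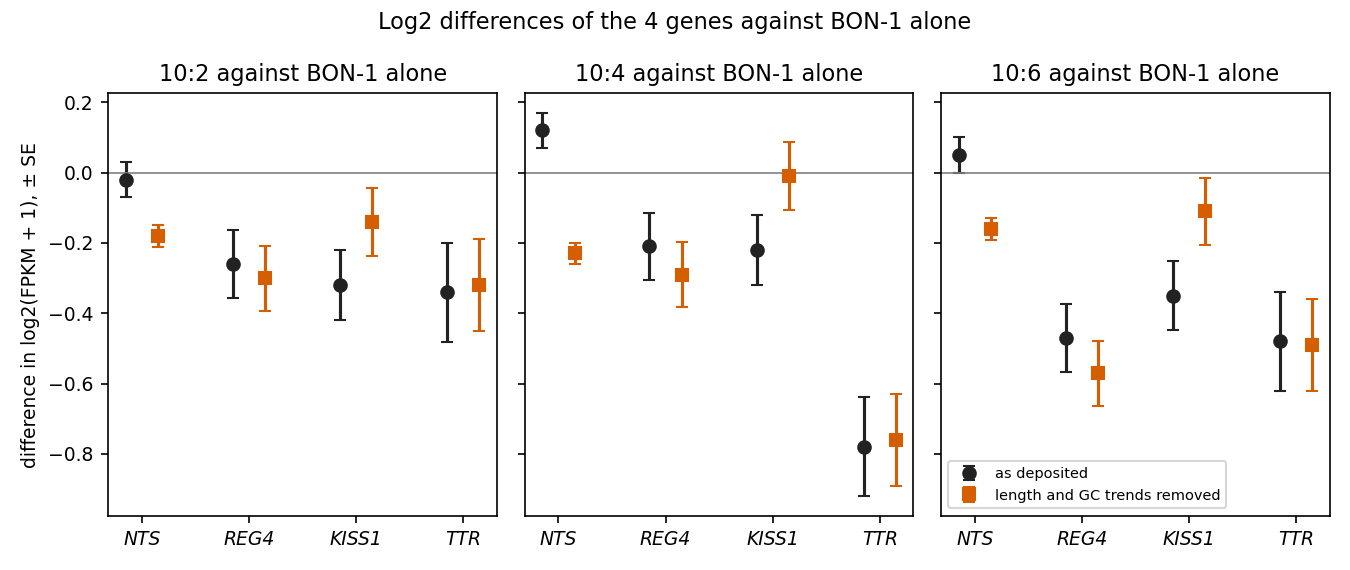
Difference in log2(FPKM + 1) against BON-1 alone, with bars of ± 1 SE (y axis), for NTS, REG4, KISS1 and TTR at 10:2, 10:4 and 10:6 (panels). Circles are values as deposited and squares values with length and GC trends removed; TTR and REG4 keep their place (TTR at 10:4, −0.78 and −0.76), KISS1 moves towards 0 and NTS from near 0 to −0.23 at 10:4.

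Genes around the 4 were taken from 10 lists of receptors, processing enzymes, carriers, relatives, other secreted proteins and transcription factors. Of their 161 genes 73 were tested. At 10:2, 11 rose and 6 fell (23.3%), at 10:4, 18 and 17 (47.9%), and at 10:6, 20 and 17 (50.7%), close to the shares of all genes above. The median log2 difference at 10:6 was −0.00, against 0.02 over all tested genes. With the trends removed 26 rose and 7 fell at 10:6 (45.2%), against 28.4% of all 12094 genes in that fit. With library medians kept it was 18 and 8 (35.6%), against 24.5%. These shares were above those of all genes, but the lists were chosen with earlier results known, so nothing is read from them. Trend removal itself took the median over all genes at 10:6 from 0.02 to 0.07, or to 0.03 with library medians kept. Values and calls below with the trends removed keep library means unless stated, so they include this shift. For most of them the call with medians kept is not given. The values that follow are for 10:6 against BON-1 alone, as mean FPKM ± SD in BON-1 alone and at 10:6, with adjusted p from limma.

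On the neurotensin side the sorting receptor SORT1 and 3 of 5 tested peptidases passed, and the signalling receptor did not. SORT1, which encodes sortilin, rose from 29.4 ± 0.462 to 35.0 ± 0.704 (adjusted p = 0.000225). NTSR1, the receptor of neurotensin, had 7.26 ± 0.515 and 6.50 ± 0.307 (adjusted p = 0.143). SORL1, a related sorting receptor, had 1.63 ± 0.254 and 1.85 ± 0.148. Of 3 tested genes of that list 1 rose and 0 fell, with a median log2 difference of 0.12. NTSR2 had 1 read in all 12 libraries together.

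Among the peptidases that cut neurotensin, NLN (neurolysin) rose from 3.25 ± 0.136 to 5.04 ± 0.165 (adjusted p = 2.72e-05). THOP1, thimet oligopeptidase, fell from 52.8 ± 1.42 to 44.6 ± 0.513 (adjusted p = 0.00117). ECE1, endothelin-converting enzyme, fell from 48.2 ± 1.14 to 44.5 ± 1.07 (adjusted p = 0.0271), and that call ended without BON-1 alone replicate 1 (0.0948) or 2 (0.0682) or 10:6 replicate 2 (0.077) or 3 (0.0876). PREP, prolyl endopeptidase, had 10.6 ± 0.846 and 10.2 ± 0.515, and did not pass. Of 5 tested, 1 rose and 2 fell, with a median of −0.12. With length and GC trends removed THOP1 went from −0.24 to −0.02 and did not pass, ECE1 turned to 0.06, and NLN and SORT1 went from 0.51 to 0.18 and from 0.24 to 0.14. With library medians kept NLN and SORT1 did not pass (0.13 and 0.09).

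KISS1R, the kisspeptin receptor, was low in BON-1 cells, with 2.36 ± 0.245 FPKM alone and 2.44 ± 0.688 at 10:6 (log2 difference 0.01 ± 0.198, SE), and it was the 1 gene of 7 in its list that could be tested. Of 8 tested convertases and kisspeptin proteases 5 rose and 2 fell, with a median of 0.14. CPE, the carboxypeptidase that trims peptide hormones, rose from 123 ± 1.63 to 137 ± 1.69 (adjusted p = 0.00107). FURIN, a convertase of the trans-Golgi network that cuts the kisspeptin precursor, rose from 42.0 ± 0.398 to 45.7 ± 0.583 (adjusted p = 0.0183), a call that ended without BON-1 alone replicate 1 (0.0588) or 10:6 replicate 2 (0.0562) or 3 (0.0532). PCSK6, another convertase, had 22.4 ± 0.978 and 21.7 ± 0.835. After trend removal FURIN went from 0.12 to 0.32 on the log2 scale, and PCSK6 passed narrowly as higher (0.13, adjusted p = 0.041 in limma).

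A further 3 genes of that list were named after their values were seen. PCSK1, the granule convertase of neuroendocrine cells, rose from 14.7 ± 0.617 to 20.3 ± 0.421 (adjusted p = 2.78e-05). MMP14 and MMP2, matrix metalloproteinases that can cut kisspeptins and are also made by fibroblasts, rose from 13.7 ± 0.746 to 17.8 ± 0.693 and from 14.5 ± 0.905 to 17.2 ± 0.121 (adjusted p = 0.00017 and 0.00286). With the trends removed PCSK1 went from 0.44 to 0.20, MMP14 from 0.36 to 0.56 and MMP2 from 0.23 to 0.42. PCSK2, the other granule convertase, had 2 reads in all libraries together.

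Of 7 tested genes of retinol and thyroid hormone transport 2 rose and 3 fell, with a median of −0.05. STRA6, the membrane receptor of retinol-binding protein, fell from 57.3 ± 0.346 to 52.4 ± 1.47 (adjusted p = 0.00379), but with the trends removed it turned to 0.10. CRYM, a cytosolic thyroid hormone binding protein, fell from 8.08 ± 0.688 to 6.14 ± 0.284 (adjusted p = 0.00384), and with the trends removed its −0.34 became −0.18 and did not pass. THRA, a thyroid hormone receptor, had 11.4 ± 0.717 and 11 ± 0.227. RBP4, the plasma retinol carrier that transthyretin holds, was named outside the rule. It was near the detection limit, with 117 reads in all libraries and 0.311 ± 0.244 and 0.891 ± 0.289 FPKM. Its call (adjusted p = 0.0265) ended without BON-1 alone replicate 1 (0.101) or 3 (0.0754) or 10:6 replicate 1 (0.0768) or 2 (0.0936), and its log2 difference of 0.53 was 1.39 with a pseudocount of 0.1.

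No reads came from the other REG genes of its list. REG1A, REG1B, REG3A and REG3G had 0 reads of 172923142 assigned to genes in the 12 libraries, which allows up to 3 reads. EXTL3, an exostosin-like glycosyltransferase reported as a receptor of REG proteins, fell from 22.0 ± 0.134 to 19.8 ± 0.466 (adjusted p = 0.0131), and CD44, reported as a partner of REG4, had 0.601 ± 0.109 and 0.695 ± 0.0107 and was not tested. Of 13 tested gut goblet and secretory genes 5 rose and 1 fell, with a median of 0.18. AGR2, a disulphide isomerase of mucus-secreting cells, rose from 342 ± 1.86 to 411 ± 1.40 (adjusted p = 2.32e-06), and CEACAM6, an adhesion molecule, from 42.0 ± 1.12 to 51.4 ± 1.46 (adjusted p = 0.000127). TFF2, a trefoil peptide and the 1 gene of this list that fell, was named after its values were seen and went from 2.39 ± 0.395 to 1.1 ± 0.313 (adjusted p = 0.0024). The other listed trefoil peptides did not pass, with 344 ± 6.82 and 328 ± 16.1 for TFF3 and 153 ± 6.29 and 150 ± 3.33 for TFF1. With the trends removed AGR2 went from 0.26 to 0.01 and did not pass, or to −0.03 with library medians kept, and TFF3 and TFF1 passed as higher (0.14 and 0.20).

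Most of the other peptide hormone genes did not pass the test. Of 11 tested 2 rose and 1 fell, with a median of −0.00. AGT, the angiotensin precursor, rose from 23.1 ± 0.809 to 30.7 ± 0.989 (adjusted p = 0.000105). GAL, galanin, had 78.1 ± 4.55 and 72.4 ± 2.44 (adjusted p = 0.0604, and past the threshold without BON-1 alone replicate 1, 0.0368, or 10:6 replicate 1, 0.0373), and NMB, neuromedin B, 25.6 ± 0.472 and 25.6 ± 1.55. POMC, the precursor of corticotropin, fell from 24.9 ± 1.16 to 22.5 ± 1.55 (adjusted p = 0.0397), a call that ended without BON-1 alone replicate 1 (0.087) or 2 (0.147) or 10:6 replicate 2 (0.115) or 3 (0.153), and turned to 0.09 with the trends removed. GAL and NMB then passed as higher (0.14 and 0.24), and AGT went from 0.39 to 0.60.

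Plasma proteins that liver makes, as it makes transthyretin, went both ways. Of 10 tested 3 rose and 3 fell, with a median of −0.00. AMBP, the precursor of alpha-1-microglobulin and bikunin, fell from 717 ± 6.09 to 585 ± 11.6 (adjusted p = 2.74e-05), and CLU, clusterin, from 29.8 ± 0.422 to 22.8 ± 1.25 (adjusted p = 1.36e-05). SERPINA1, alpha-1-antitrypsin, had 32.4 ± 0.985 and 30.6 ± 0.802, and APOA2 20.5 ± 0.942 and 21.7 ± 1.69. After trend removal AMBP went from −0.29 to −0.06 and still passed, and APOA2 passed as higher (0.28). ALB, albumin, had 2 reads in all libraries together.

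**Figure D4:**
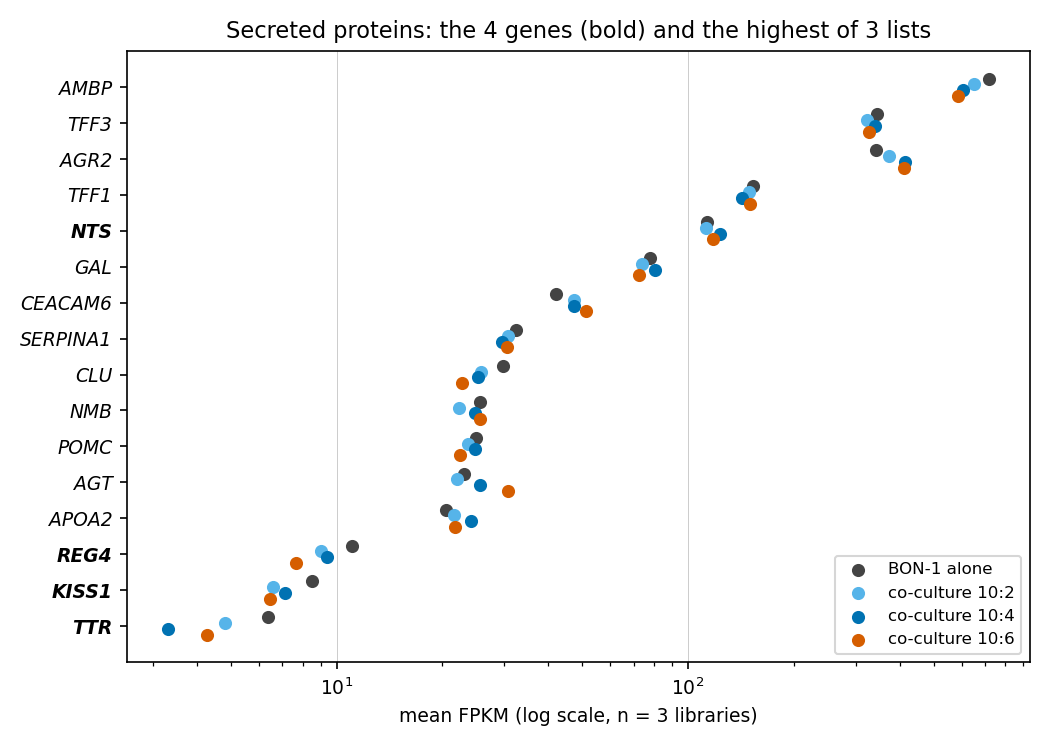
Mean FPKM on a log scale (x axis) of NTS, REG4, KISS1 and TTR (bold) and of the highest genes of the peptide hormone, plasma protein and gut secretory lists (y axis), each point a group mean of 3 libraries. REG4, KISS1 and TTR are the lowest shown, and AMBP falls from 717 to 585 while AGR2 rises from 342 to 411.

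Of 15 tested foregut and hindgut transcription factors, among them liver-type factors known to act on TTR, 2 rose and 4 fell, with a median of −0.07. FOXA3 fell from 32.7 ± 1.78 to 29.1 ± 0.813 (adjusted p = 0.0076) but turned to 0.08 with the trends removed. FOXA2 had 82.6 ± 2.04 and 76.0 ± 1.44 (adjusted p = 0.0501), and passed without 10:2 replicate 1 (0.0206) or 3 (0.0377) or 10:4 replicate 1 (0.0416) or 3 (0.0421). CEBPB had 41.0 ± 0.639 and 39.1 ± 2.26, and KLF4 35.8 ± 0.240 and 36.7 ± 0.924, with KLF4 past the threshold as higher once the trends were removed (0.22).

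The genes that followed each of the 4 most closely over the 12 libraries were picked as the highest among all compared, so high values come with the choice. Likeness was Pearson's r of log2(FPKM + 1), computed against the 7809 or 7810 other genes whose mean FPKM reached 5, and the libraries share their group and depth, so r is a description. For NTS the highest were PDHB (0.935), MRPS17 (0.894), HMGN2 (0.888) and METTL5 (0.84). For KISS1 they were LAMTOR1 (0.916), DOHH (0.898), CDK18 (0.882) and SLC37A4 (0.878). For TTR they were PEX16 (0.909), AKR1C2 (0.901), TBC1D22B (0.895) and NIPSNAP1 (0.887), and for REG4 THAP11 (0.929), NMRAL1 (0.927), SLC25A1 (0.92) and GADD45GIP1 (0.918). Each r was also taken without the 2 libraries farthest from the median of the gene followed. It was then 0.776 to 0.892 for NTS and 0.726 to 0.855 for KISS1. For TTR it was 0.711 to 0.881 and for REG4 0.828 to 0.931. Among themselves KISS1 had 0.627 with TTR and 0.624 with REG4, TTR and REG4 had 0.327, and NTS ranged from −0.24 with TTR to 0.133 with KISS1. Without the 2 libraries farthest from the median of KISS1, its r was 0.385 with TTR, 0.658 with REG4 and 0.292 with NTS, and without the 2 farthest for NTS its r with KISS1 was −0.247.

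The libraries carried neuroendocrine transcripts throughout, with 13 markers summing to 2628 to 2702 FPKM in BON-1 alone and 2940 to 3030 at 10:6, although NCAM1 had 1 read and TPH1 19. Of 10 tested 3 rose and 5 fell at 10:6, with a median of −0.13, and the higher sum came with SCG2, at 747 FPKM in BON-1 alone and 1401 at 10:6, while CHGA fell by 0.47 on the log2 scale (adjusted p = 6.65e-07). Fibroblast markers moved with the co-culture. Of 20, 16 were tested, and 11, 15 and 15 rose at 10:2, 10:4 and 10:6 with 0 falling, with medians of 0.47, 1.25 and 1.62. Without S100A4, which BON-1 cells themselves express, the other 19 summed to 137 to 143 FPKM in BON-1 alone, 177 to 179 at 10:2, 273 to 278 at 10:4 and 360 to 365 at 10:6, with none at 0 in all libraries. With S100A4 all 20 summed to 2388 to 2468 in BON-1 alone and to a lower 2265 to 2343 at 10:2. The sums were 2361 to 2613 at 10:4, overlapping BON-1 alone, and 2553 to 2840 at 10:6. Of 10 leukocyte and endothelial markers CD3E had 0 reads, and the sums were 46.3 to 47.5 in BON-1 alone and 46.3 to 48.8 at 10:6. The 11 markers of hepatocytes, acini and islets summed to 229 to 259 and 246 to 278, nearly all of it PRSS1, with PNLIP at 0 reads. The part of fibroblast RNA in the levels of NTS, KISS1, TTR and REG4 was not tested.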

How the data were processed

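The data were 1 table of FPKM values for 54261 genes in 12 libraries, deposited by the authors. The submitters' processing notes name HISAT2, featureCounts and build hg38, with versions not given in the sources used here. Whole reads were recovered from the FPKM steps, and 99.9738% of 267349 nonzero values came out whole within 1e-07 of their size. The 13312 genes with 3 or more libraries at an FPKM of 1 or above were fitted as log2(FPKM + 1), with 1 mean per group over all 12 libraries, in limma 3.58.1 (R 4.3.3). Empirical Bayes with a variance trend and Benjamini-Hochberg adjustment within a comparison were used, with a threshold of 0.05. The pseudocount of 1 understates differences of low genes such as TTR. The method was tested on simulated data.

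The 4 genes and all lists were chosen with earlier results of these data known. From each list up to 4 genes of highest mean FPKM were named, with receptors or relatives stated as detected or not, and for likeness the 4 genes of highest r. Some genes that this rule names are not reported here. Trends on gene length and GC content (GENCODE 29, longest transcript; known for 12094 genes, 90.85%) were removed by splines with 5 degrees of freedom each. Other alternatives changed the pseudocount, filter, scaling, variance model, libraries in the fit and replicate block, used limma-voom on the recovered reads, and left out each library in turn. Depths were 11703624 to 21882537 reads. Summaries used Python 3.11.15 with scipy 1.17.1, numpy 2.4.6, pandas 2.3.3 and matplotlib 3.10.9.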

Additional observations from a re-analysis of the deposited data

How the results depend on the processing

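The differences of TTR, REG4 and KISS1 from BON-1 alone kept their sign at all 3 ratios under the 24 alternatives run, though KISS1 came close to 0 with length and GC trends removed. NTS turned at 10:4 and 10:6 with the trends removed. At 10:2 it stayed lower with the trends removed, and turned with quantile normalization (0.02) and without 10:2 replicate 2 (0.04). Below, values are given for trends removed with library means kept and then with library medians kept, the latter chosen after seeing the data. At 10:2, 10:4 and 10:6 against BON-1 alone KISS1 was −0.14, −0.01 and −0.11, then −0.18, −0.07 and −0.16. NTS was −0.18, −0.23 and −0.16, then −0.22, −0.29 and −0.21, and for 10:4 against 10:2 and 10:6 against 10:4 −0.05 and 0.07, then −0.07 and 0.08. REG4 with medians kept was −0.34 at 10:4 and −0.62 at 10:6. Genes called against BON-1 alone numbered 3648, 6046 and 6394 and became 1735, 3185 and 3430, then 1330, 2629 and 2962, and companion genes called at 10:2 went from 17 to 9 in both. Signs turned at 10:6 for ECE1 (0.06, then 0.01), FOXA3 (0.08, then 0.04), POMC (0.09, then 0.05), STRA6 (0.10, then 0.05) and, with medians kept, AGR2 (−0.03).

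Counts between ratios moved most. For 10:4 against 10:2, 10:6 against 10:4 and 10:6 against 10:2 they were 384, 44 and 928. They became 127, 86 and 449 with trends removed, 109, 88 and 422 with medians kept, 179, 16 and 477 with no filter, 48, 12 and 263 in a fit of the compared groups alone, and 1045, 276 and 1541 with limma-voom. Quantile normalization gave 69 for 10:6 against 10:4, and no variance trend 584 for 10:6 against 10:2. Leaving out 1 library gave 45 to 461, 12 to 42 and 229 to 1105 for these, 2588 to 3807, 5070 to 6063 and 5405 to 6464 against BON-1 alone, and 11 to 19, 28 to 36 and 32 to 39 companion genes.

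The replicate number as a block gave 175, 15 and 542 genes between ratios and 3240, 5739 and 6104 against BON-1 alone. No pairing by number was seen over all tested genes. Residuals of same-numbered libraries correlated from −0.0427 to 0.0458 over 18 pairs, and of others from −0.053 to 0.0622 over 36. A small shared effect, or one in few genes, could be missed in this way. With the block KISS1 at 10:4 passed.

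Depth limits TTR and KISS1, which rest on 31 to 130 reads a library. KISS1 at 10:2 did not pass without the filter, in a fit of the groups alone, with limma-voom (−0.36) or with trends removed, where KISS1 at 10:6 did not either. Quantile normalization added TTR (−0.43) and REG4 (−0.32) at 10:2, and REG4 (−0.27), KISS1 (−0.32) and NTS (0.16, higher) at 10:4. It called 2965 of the 13312 genes at 10:2 and 6439 at 10:4. NTS at 10:4 also passed as higher in a fit of the groups alone and with limma-voom (0.12 each), and REG4 at 10:2 with an FPKM of 1 in all libraries (−0.26). The fit of the groups alone called 5759 and limma-voom 6546 of the 13312 genes at 10:4. With an FPKM of 1 in all libraries 3524 genes passed at 10:2. With trends removed in either way REG4 at 10:2 and 10:4 and NTS at all 3 ratios passed as lower. At 10:2, 10:4 and 10:6 14.3%, 26.3% and 28.4% of 12094 genes then passed in either direction. With medians kept it was 11%, 21.7% and 24.5%. For these other fits the shares by direction are not given, so calls as lower or higher have no like share beside them. Nothing is read from these calls of the 4 genes.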
